A study of Mus musculus with 24 samples.

Results

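BXH19 is one of the 9 recombinant inbred (RI) BXH strains of this series, and the data described here are its lungs, measured on the 2 arrays titled BXH19-1 and BXH19-2 of 24 arrays in all. They were set against the 16 arrays of the 8 other RI strains (BXH2, BXH4, BXH6, BXH7, BXH8, BXH9, BXH10 and BXH14, 2 arrays each). To place BXH19 against the progenitors, the arrays of C57BL/6J (B6, 2 arrays) and C3H/HeJ (C3, 2 arrays) were used, and 2 arrays of their F1 hybrid completed the series. All mice were untreated males aged 8 weeks, and RNA of whole lung was measured on Affymetrix Mouse 430A arrays, where a gene has 1 or more probe sets. Each sample is labelled n = 1, but no label states that a strain's arrays are from different mice. The p-values therefore rest on the spread between arrays, and part or all of it may be technical. A strain is 1 inbred line, so whatever is fixed in that line is shared by both of its arrays.

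RI strains are made by crossing a pair of inbred progenitors and brother-sister mating the descendants until each line is homozygous, so that at most loci a line carries the allele of one progenitor or of the other. A gene whose level is set by variation near the gene itself is therefore usually found at the level of one progenitor. A level above or below both progenitors can arise where alleles from both meet in one line. On mouse chromosome 17 lies the H2 complex, which encodes the class I and class II molecules that present antigens to T cells; B6 and C3H mice carry different H2 haplotypes.

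The BXH19 arrays were each other's closest array, with a correlation over the tested genes of 0.967, against 0.930 to 0.961 with the other 22 arrays and 0.949 to 0.975 within the other strains. Surfactant and alveolar type 2 genes, which mark the lung epithelium that makes surfactant, stood at a mean log2 level of 12.51 and 12.59 in BXH19 lungs, against 12.37, 12.59 and 12.79 as the lowest, median and highest of the other RI lungs. BXH19 lay within the range of the other strains. Skeletal muscle genes, which mark skeletal muscle fibres, stood at 8.03 and 6.60 in BXH19 lungs, against 6.55, 9.27 and 11.27 as the lowest, median and highest of the other RI lungs. Both BXH19 arrays lay below the median of the other strains on that list, although other RI arrays reached the same low level. Signals are linear intensities, and differences are on the scale of log2(signal + 16), which understates changes of dim genes. The number of arrays limits the precision.

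Of 8280 genes tested, 40 were higher in BXH19 lungs (0.483% of those tested) and 61 were lower (0.737%), at an adjusted p below 0.05 in limma with Benjamini-Hochberg adjustment over all tested genes. These 101 genes (1.22%) are referred to as called. An unadjusted p below 0.05 in the same limma test held for 936 genes (11.3%). For 30 of the 101 called genes both BXH19 arrays lay outside all 16 other RI arrays (14 above, 16 below). Over all tested genes this held for 165 (86 above, 1.04%, and 79 below, 0.954%, together 1.99%). Outside all 22 other arrays lay 24 of the called genes, and 92 (1.11%) of all tested genes. BXH19 had the highest of 9 strain means for 27 called genes and the lowest for 45, against 8.44% and 10.9% of all tested genes. The spread in this test is that between arrays of 1 strain. With the 9 strain means as units, so that the spread between strains was the error, limma called 0 genes, with 293 at an unadjusted p below 0.05 and a lowest adjusted p of 0.106, for Ephb3. Leaving out 1 of the BXH19 arrays left 31 or 32 genes called, of which 28 and 30 were among the 101, and adding the skeletal muscle level as a covariate left 67, of which 56 were. Each call was recomputed under up to 44 alternatives that kept arrays as units, fewer where a gene was not tested under another filter or probe set rule, and counts of lost calls below are out of those run for the gene. In what follows, without either BXH19 array means with BXH19-1 or BXH19-2 left out, 1 at a time, and the range given with it is that of the difference over the 24 fits that each left out 1 array.

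When the 101 called genes were placed by size against the progenitor means, 20 lay within 0.5 (log2) of B6 alone, 39 within 0.5 of C3 alone and 7 within 0.5 of both. Above both progenitors by more than 0.5 lay 10 genes, below both lay 22, and 3 lay between. Over all tested genes, 87.5% lay within 0.5 of both progenitors, 5.36% of B6 alone, 4.34% of C3 alone, 1.04% above both and 1.5% below both. A place within 0.5 is a description and does not show equality. Among the 28 called genes whose progenitor means were at least 1 apart, 12 were at the B6 level and 11 at the C3 level, and 5 were elsewhere.

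**Figure D1:**
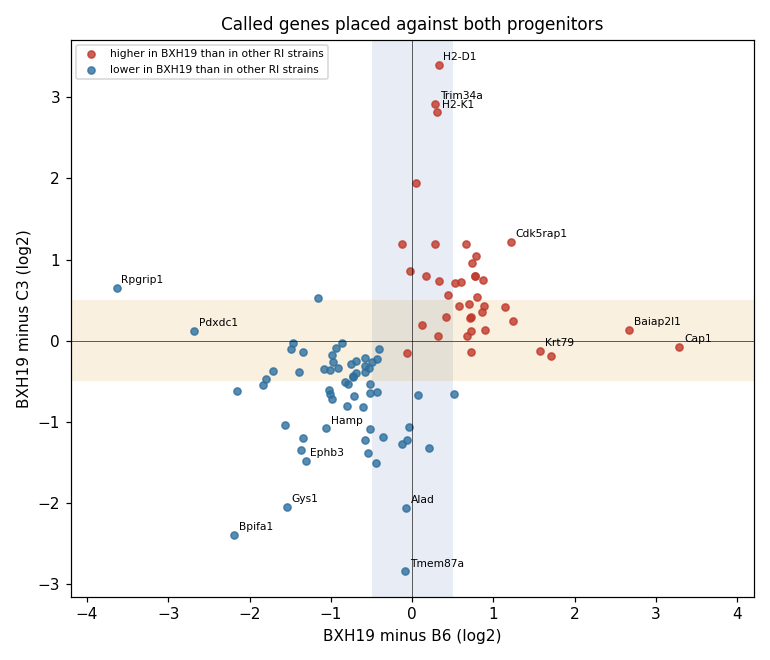
Each point is 1 of the 101 genes called in BXH19 lungs against the other RI strains, with its log2 difference from the B6 mean on the x axis and from the C3 mean on the y axis; the blue band is within 0.5 of B6 and the yellow band within 0.5 of C3. Most genes higher than in the other RI strains lie at the upper right and most lower ones at the lower left, with H2-D1 and Trim34a in the B6 band and Cap1 and Baiap2l1 in the C3 band, and Hamp and Bpifa1 below both.

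Among genes at the B6 level was Trim34a, a member of the tripartite motif family. Its signals were 1109 and 1059 in BXH19 lungs, against 26.6, 125 and 1141 as the lowest, median and highest of the other RI lungs. In B6 the signals were 996 and 793, and in C3 they were 126 and 134. BXH19 had the highest strain mean, but BXH7, BXH14 and BXH2 stood close by at 1039.8, 981 and 868, and the other strains at or under 105 (strain means are back-transformed from log2). The log2 difference of BXH19 from the other RI strains was 2.36 (SE 0.33, adjusted p = 5.46e-04). The second probe set of Trim34a went the other way, at -1.04, so the direction for this gene depends on the probe set read.

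Alad, the second enzyme of heme synthesis, had signals of 408 and 296 in BXH19 lungs, against 433, 1401 and 1677 as the lowest, median and highest of the other RI lungs. Its B6 signals were 337 and 399 and its C3 signals 1370.3 and 1629.9, so BXH19 lay with B6 and below every other RI array. BXH14 and BXH10 were nearest among the other strains, at strain means of 446 and 465. The difference was -1.54 (SE 0.12, adjusted p = 4.58e-07). Hdhd3, a haloacid dehalogenase-like protein encoded by the neighbouring gene on chromosome 4, was lower as well, with a difference of -0.74 (SE 0.17, adjusted p = 0.0373), and lay below both progenitors. It was not called under 16 of 43 alternatives, among them either BXH19 array left out (-0.93 to -0.55).

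Tmem87a, a Golgi membrane protein, had signals of 90.8 and 138 in BXH19 lungs, against 108, 169 and 1025 as the lowest, median and highest of the other RI lungs. With 124 and 116 in B6 and 932 and 870.0 in C3, BXH19 stood at the B6 level together with BXH2, BXH4, BXH6, BXH7 and BXH9, whose strain means lay between 135 and 182. BXH8, BXH10 and BXH14 stood at 840.2 to 973, and the difference of BXH19 from the mean of all 8 was -1.29 (SE 0.17, adjusted p = 3.57e-04). Gprc5b, an orphan receptor, was lower at the B6 level too, at 106 and 129, against 97.9 to 431 (median 379.6) in the other RI lungs, 124 and 118 in B6 and 275 and 248 in C3. That difference was -1.04 (SE 0.13, adjusted p = 2.03e-04), and the other probe set of the gene gave -1.08. Copz2, a coatomer subunit, Smim10l1, a small membrane protein, and Mfap5, a microfibril component, were higher at the B6 level, by 0.87, 0.82 and 0.65. BXH19 shared these levels with other strains. By strain means, Copz2 was at 542 in BXH19 and at 550, 541 and 471 in BXH10, BXH9 and BXH2. Smim10l1 was at 1472 in BXH19 and at 1245 to 1532 in BXH2, BXH4, BXH7, BXH9 and BXH10. Mfap5 was at 2085 in BXH19 and 2130 in BXH10. Leaving out a BXH19 array ended the calls of Smim10l1 (0.72 to 0.92) and Mfap5 (0.60 to 0.70) without either BXH19 array, of Tmem87a (-1.55 to -1.03) without BXH19-1 and of Copz2 (0.65 to 1.10) without BXH19-2. Copz2 lost it with the skeletal muscle covariate too, and in all Smim10l1 lost its call under 28 of 44 alternatives, among them both other normalizations and the mean of its probe sets (0.46), and Mfap5 under 13 of 44, among them the muscle covariate.

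**Figure D2:**
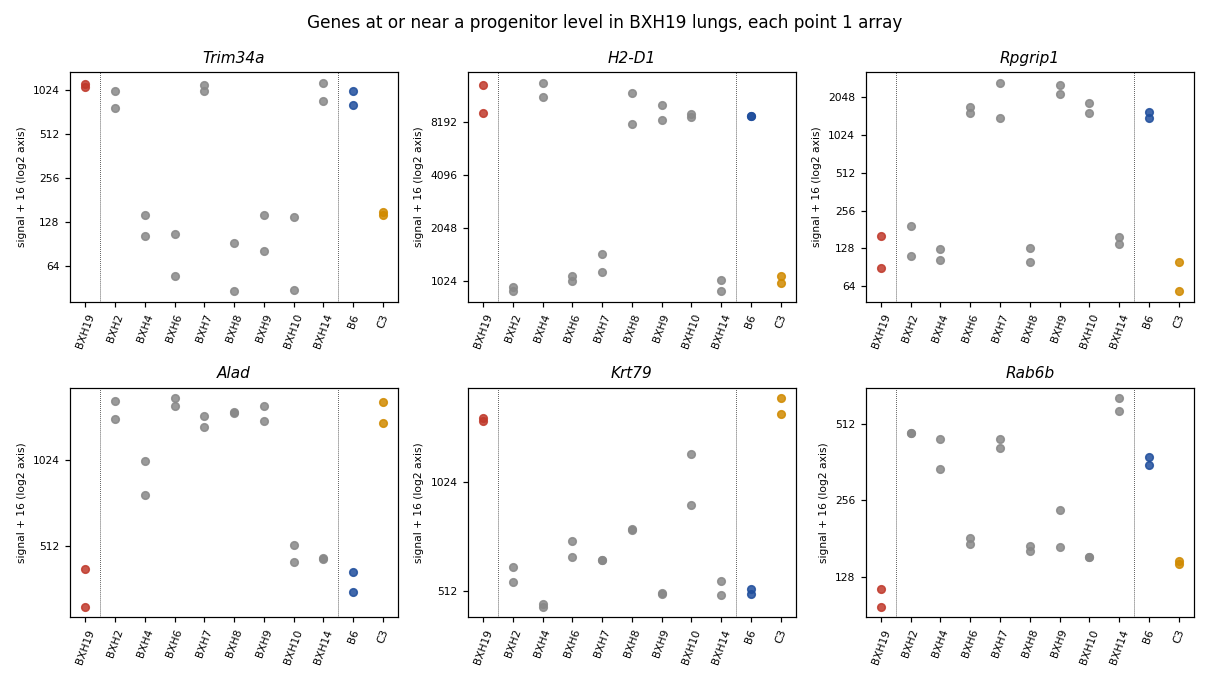
Signals plus 16 on a log2 axis for 6 called genes, by strain, with BXH19 at the left, the 8 other RI strains in grey and B6 and C3 at the right; each point is 1 array. BXH19 stands with B6 for Trim34a, H2-D1 and Alad, with C3 for Krt79, and with or near C3 for Rpgrip1 and Rab6b, and for Krt79, Alad and Rab6b both BXH19 arrays lie outside all other RI arrays.

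In the H2 complex, the class I heavy chains H2-D1 and H2-K1 stood at the B6 level. H2-D1 had signals of 9189.7 and 13260.3 in BXH19 lungs, against 882, 4676 and 13593 as the lowest, median and highest of the other RI lungs. B6 had 8824 and 8797 and C3 1086 and 985. BXH4, BXH8, BXH9 and BXH10 also stood near B6, with strain means from 8841 to 12353, and BXH2, BXH6, BXH7 and BXH14 near C3, from 912 to 1287. The difference of BXH19 from the mean of the others was 1.77 (SE 0.16, adjusted p = 2.88e-06). H2-K1 followed the same split, with 10014 and 11682 in BXH19 lungs, 1506 to 14053 (median 5288) in the other RI lungs, 8594 and 8905 in B6 and 1565 and 1486 in C3. Its difference was 1.31 (SE 0.12, adjusted p = 6.60e-06). The 8 other probe sets of H2-D1 gave differences from -2.76 to 3.47, the mean of its probe sets gave 0.47 (adjusted p = 0.0383), and class I genes are near-identical copies that share sequence, so their signals cannot be told apart with certainty.

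The RefSeq promoters of both genes are shown because the pair was higher together; they run from 250 bases before to 50 bases after the gene start in GRCm38.p6, which is B6 sequence, and H2-K1 lies at chr17:34000298-34000597, minus strand, and H2-D1 at chr17:35262844-35263143, plus strand. Capitals mark GGATTCC, the centre of the kappa B site of class I promoters, searched on both strands; it occurs 1 time in each and in 1245 of 32851 promoters (3.79%). The array files name no genome build, and a match is no evidence of binding.
H2-K1: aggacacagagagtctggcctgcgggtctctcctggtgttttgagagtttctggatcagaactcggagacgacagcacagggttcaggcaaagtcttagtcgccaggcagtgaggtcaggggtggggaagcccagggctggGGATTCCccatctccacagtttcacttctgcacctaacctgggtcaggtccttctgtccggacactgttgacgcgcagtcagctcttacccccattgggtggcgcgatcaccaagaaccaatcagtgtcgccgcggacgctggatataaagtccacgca
H2-D1: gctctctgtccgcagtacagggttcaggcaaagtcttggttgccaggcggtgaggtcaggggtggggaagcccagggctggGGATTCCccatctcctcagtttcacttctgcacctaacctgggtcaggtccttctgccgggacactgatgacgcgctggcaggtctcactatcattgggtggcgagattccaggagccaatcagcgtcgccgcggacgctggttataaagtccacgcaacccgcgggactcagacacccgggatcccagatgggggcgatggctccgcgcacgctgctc

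Other H2 genes were less far apart. H2-M3, a class I molecule that presents formylated peptides, had 1188 and 1226 in BXH19 lungs, against 401 to 1387 (median 748) in the other RI lungs, and stood nearer to B6 (1077 and 913) than to C3 (452 and 601), with a difference of 0.70 (SE 0.12, adjusted p = 0.00517). It was not called without either BXH19 array (0.68 to 0.72). Of the 10 tested genes of class I presentation, 3 were higher and 0 lower, beside 0.483% and 0.737% of all tested genes. Their median difference was 0.23, beside -0.01 for all tested genes. The other members, which include the peptide transporters Tap1 (0.12) and Tap2 (-0.06) and the light chain B2m (0.34), did not pass. Class II genes had 2 of 8 tested members higher and 0 lower, with a median difference of 0.41. H2-Ab1, a class II beta chain, had 2675 and 2704 in BXH19 lungs, above 936 to 2529 (median 1696) in the other RI lungs, 1539.9 and 1755 in B6 and 2233 and 1727 in C3. Its difference was 0.67 (SE 0.16, adjusted p = 0.0394), and that of H2-DMa, which helps load class II molecules with peptide, was 0.53 (SE 0.11, adjusted p = 0.0136). Both lost the call without either BXH19 array, at differences of 0.61 to 0.72 for H2-Ab1 and 0.48 to 0.58 for H2-DMa, and with the skeletal muscle covariate; in all H2-Ab1 lost it under 18 of 44 alternatives and H2-DMa under 4 of 44. The H2-Aa, H2-Eb1 and Cd74 differences of 0.34, 0.48 and 0.21 did not pass.

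H2-Ea, a class II alpha chain that mice of the b haplotype do not make, was too dim for the filter and was not tested. Its brightest probe set had signals of 12.4 and 11.6 in BXH19 lungs, against 14.1, 53.0 and 203 as the lowest, median and highest of the other RI lungs, 29.1 and 9.5 in B6 and 116.5 and 108 in C3. Both BXH19 arrays lay between the B6 arrays and below all other RI and C3 arrays. On the same chromosome, Glo1, the glyoxalase that clears methylglyoxal, had 1162 and 1107 in BXH19 lungs, against 901 to 2881 (median 1613) in the other RI lungs, 1079 and 1413 in B6 and 2741 and 2789 in C3. The difference of -0.44 (SE 0.11, adjusted p = 0.0434) did not pass under 25 of 44 alternatives, among them either BXH19 array left out (-0.48 to -0.41). Chromosome 17 held 10 called genes, 2.39% of its tested genes, beside 1.22% of all tested genes. This was the highest share of any chromosome, but chromosomes 15 and 8 were close, at 2.33% and 2.07%.

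Of the genes at the C3 level, Krt79, a keratin that alveolar macrophages express, stood out from all other RI strains. Its signals were 1518 and 1491 in BXH19 lungs, against 446, 592 and 1207 as the lowest, median and highest of the other RI lungs. B6 had 486 and 503 and C3 1723 and 1557. The next strain was BXH10, at a strain mean of 1024, and the other RI strains lay between 449.5 and 740.3. The difference was 1.29 (SE 0.10, adjusted p = 4.58e-07), and it ran from 1.26 to 1.32 over the fits that left out 1 array. On the same stretch of chromosome 15, with 4 annotated genes between neighbours, the epithelial keratin Krt18 (-0.79, SE 0.11, adjusted p = 6.35e-04) and the growth factor binding protein Igfbp6 (-0.63, SE 0.11, adjusted p = 0.0057) were lower. Igfbp6 was not called without BXH19-2 (-0.82 to -0.44).

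Cap1, which recycles actin, had 3261 and 3223 in BXH19 lungs, 200.3 to 3687 (median 3034) in the other RI lungs, 352 and 286 in B6 and 3402 and 3441 in C3. Only BXH8 and BXH10 stood at the B6 level, at strain means of 245 and 311, so that BXH19 shared its level with 6 strains. The difference was 0.88 (SE 0.13, adjusted p = 0.00133), and without either BXH19 array, at 0.85 to 0.92 over the fits that left out 1 array, it did not pass. Without both arrays of BXH8 it fell to 0.49 (adjusted p = 0.0694) and was not called, and without both arrays of BXH10 it was 0.53 (adjusted p = 0.027). Ppt1, the lysosomal thioesterase encoded next to Cap1 on chromosome 4, was higher by 0.44 (SE 0.10, adjusted p = 0.0342) and was lost without either BXH19 array (0.29 to 0.58), under 9 of 44 alternatives in all, among them the mean of its probe sets (0.27). Baiap2l1, an adaptor for actin at the membrane, had 4165 and 4045 in BXH19 lungs, against 575 to 5706 (median 3351) in the other RI lungs, 560.3 and 713 in B6 and 4183 and 3330.4 in C3. BXH2, BXH7 and BXH8 stood at the B6 level for this gene, and the difference was 1.05 (SE 0.12, adjusted p = 5.64e-05).

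Genes that were lower in BXH19 lungs and near C3 included Rab6b, a Golgi GTPase, with 81.3 and 98.4 in BXH19 lungs, 137 to 631 (median 272) in the other RI lungs, 338 and 364 in B6 and 128 and 132 in C3. Both BXH19 arrays lay below all other RI, B6 and C3 arrays, and the difference was -1.43 (SE 0.15, adjusted p = 1.80e-05). Rpgrip1, a ciliary protein of photoreceptors, had 72.8 and 145 in BXH19 lungs, against 84.4 to 2653 (median 784) in the other RI lungs, 1547 and 1392 in B6 and 42.2 and 83.5 in C3. BXH2, BXH4, BXH8 and BXH14 were as low, at strain means of 97.5 to 133, and the difference was -2.05 (SE 0.24, adjusted p = 6.89e-05). Tmem71 and Lrrc1, a membrane protein and a scaffold of cell polarity, were lower at the C3 level, with differences of -1.26 (SE 0.18, adjusted p = 8.04e-04) and -1.22 (SE 0.19, adjusted p = 0.00164). Lrrc1 was not called without BXH19-1 (-1.44 to -0.998), and Tmem71 was not called without BXH19-2 (-1.35 to -1.16). By strain means, Tmem71 was at 110 in BXH19 and at 102 in both BXH6 and BXH9. Lrrc1 was at 120 in BXH19 and at 149 and 152 in BXH2 and BXH4. Sspn, part of the dystrophin complex, had 256 and 284 in BXH19 lungs, below 304 to 1032 (median 608) in the other RI lungs and between B6 (660.1 and 586) and C3 (169.8 and 197), with a difference of -1.04 (SE 0.12, adjusted p = 5.64e-05), or -0.65 with the mean of its probe sets.

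Pdxdc1, a decarboxylase-like protein, had 124 and 139.6 in BXH19 lungs, against 149 to 1022 (median 858) in the other RI lungs, 849 and 1021 in B6 and 96.9 and 146 in C3, and a difference of -1.74 (SE 0.13, adjusted p = 3.45e-07). BXH2, BXH4 and BXH6 were nearly as low, at 157 to 168. Its other probe sets ran from -0.69 to 1.95, and with an offset of 64 another probe set represented the gene and gave 1.70, while their mean gave -0.21 and was not called, so no direction is given for the gene. Akr1e1, an aldo-keto reductase, and Apobec3, a cytidine deaminase that restricts retroviruses, were lower at the C3 level, with differences of -0.88 (SE 0.17, adjusted p = 0.0122) and -0.87 (SE 0.14, adjusted p = 0.00164). Akr1e1 was not called without either BXH19 array (-1.01 to -0.75) or with the skeletal muscle covariate, and Apobec3 was not called without BXH19-1 (-0.97 to -0.78). By strain means, Akr1e1 was at 183 in BXH19 and at 186 and 115 in BXH6 and BXH10. Apobec3 was at 226 in BXH19 and at 231 to 284 in BXH2, BXH7, BXH8 and BXH9. Arap3, a GTPase-activating protein, was lower, with 388 and 419 in BXH19 lungs, 412 to 1886 (median 1383) in the other RI lungs, 1435 and 1535 in B6 and 746 and 478 in C3; its other probe set gave 0.08, and with the mean of its probe sets the difference was -0.63 (adjusted p = 0.0674) and not called.

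Over 117 tested genes whose progenitors differed by at least 1 and did not overlap, BXH19 lay nearer to C3 for 71 and nearer to B6 for 46. The share nearer to C3 was 60.7%, within the 38.5% to 69.2% of the other RI strains. Both BXH19 arrays lay on the same side for 95 of the 117, and 9 lay beyond a progenitor by more than 0.5 of the progenitor difference. These genes are not independent, since neighbours share a segment. They also include skeletal muscle genes, such as Myl1 and Tnnt3, both among the 9, and squamous epithelium genes, such as Krt13 and Krtdap. The mean log2 level of the skeletal muscle list was 6.91 on C3-1 and 10.08 on C3-2. The share is therefore no measure of progenitor alleles alone, and what part tissue had in it was not tested.

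Against both progenitors at once, 9 genes were higher in BXH19 lungs (0.109% of those tested) and 10 were lower (0.121%), each at an adjusted p below 0.05 in BXH19 minus B6 and in BXH19 minus C3, which share the BXH19 arrays. BXH19 minus B6 alone called 112 genes (1.35%) and BXH19 minus C3 alone 119 (1.44%). Of the 19 genes outside both (0.229%), 6 were also called against the other RI strains: Cdk5rap1 and Gsta3 were higher, and Ap1s1, Ephb3, Mb and Pygm lower. The other 13 did not pass against the other RI strains. The counts fell to 3 higher and 1 lower when 1 array was left out, without BXH19-2 in both cases.

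Cdk5rap1, which modifies mitochondrial transfer RNAs, had 507 and 509.9 in BXH19 lungs, 179.6 to 648 (median 243) in the other RI lungs, 212 and 208 in B6 and 197 and 223 in C3. BXH19 differed by 1.21 (SE 0.17, adjusted p = 4.83e-04) from B6, by 1.22 (SE 0.17, adjusted p = 4.76e-04) from C3 and by 0.78 (SE 0.13, adjusted p = 0.00231) from the other RI strains. BXH7 and BXH10 stood as high, at strain means of 601 and 549, while the other RI strains lay between 199 and 249. The call was lost without either BXH19 array (0.76 to 0.81). Gsta3, a glutathione transferase, had 1020.1 and 1041 in BXH19 lungs, against 436 to 1011 (median 704) in the other RI lungs, 602 and 595 in B6 and 634 and 541 in C3. Its difference from the other RI strains was 0.55 (SE 0.13, adjusted p = 0.0373), and it lost the call without either BXH19 array, at 0.52 to 0.58, and under 13 of 44 alternatives in all, among them the mean of its probe sets (0.35).

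Ephb3, a receptor for ephrins that guides cell positioning, had 288 and 98.9 in BXH19 lungs, 362 to 596 (median 493) in the other RI lungs, 443 and 451 in B6 and 492 and 517 in C3. Both BXH19 arrays lay below all 22 others but stood far apart from each other, and the difference of -1.38 (SE 0.22, adjusted p = 0.0018) ran from -2.09 to -0.68 over the fits that left out 1 array. It was not called without BXH19-2. Ap1s1, an adaptor subunit of clathrin coats, had 463 and 507 in BXH19 lungs, 585 to 838 (median 720.5) in the other RI lungs, 829.7 and 887 in B6 and 754 and 975 in C3, with a difference of -0.55 (SE 0.12, adjusted p = 0.0239). Both arrays lay below all others, yet without either BXH19 array, or with the muscle covariate, the call was lost (-0.61 to -0.49). Pygm, the glycogen phosphorylase of muscle, and Mb, the oxygen store myoglobin, are muscle genes and were lower, with differences of -1.01 (SE 0.19, adjusted p = 0.0109) and -1.24 (SE 0.22, adjusted p = 0.00517). The call of Pygm was lost without either BXH19 array (-1.09 to -0.93). That of Mb was lost without BXH19-1 (-1.44 to -1.05) and with the mean of its probe sets (-0.59, adjusted p = 0.0549), its other probe set giving 0.06.

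Further genes lay beyond both progenitor means by more than 0.5 without passing both progenitor tests. Hamp, which encodes the iron hormone hepcidin, had signals of 203 and 287 in BXH19 lungs, against 582, 751 and 1713 as the lowest, median and highest of the other RI lungs. B6 had 635 and 426 and C3 693 and 402. Both BXH19 arrays lay below all 22 other arrays. The difference was -1.65 (SE 0.21, adjusted p = 2.20e-04), ran from -1.89 to -1.41 over the fits that left out 1 array, and was -2.45 in the second probe set. Against the progenitors the differences were -1.06 (SE 0.28, adjusted p = 0.0788) from B6 and -1.08 (SE 0.28, adjusted p = 0.0686) from C3, so Hamp was not called outside both.

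Bpifa1, a secreted defence protein of the upper airway, had signals of 1137 and 1456 in BXH19 lungs, against 277, 5671 and 9947 as the lowest, median and highest of the other RI lungs. B6 had 5875 and 5973 and C3 5793 and 8029. BXH10 was lower still, at a strain mean of 705, and the other RI strains lay between 3889 and 8177. The difference was -1.85 (SE 0.41, adjusted p = 0.0316), and the call was lost without either BXH19 array, at -2.03 to -1.67, and under 5 of 44 alternatives in all. Gys1, the glycogen synthase of muscle, had 93.8 and 22.4 in BXH19 lungs, against 87 to 339 (median 219) in the other RI lungs, and Slc4a1, the anion exchanger of red cells, had 187 and 33.6, against 112 to 612 (median 242). Their differences of -1.69 and -1.31 rested on BXH19-2, without which they were -0.93 and -0.29 and not called. Gys1 also lost the call with the muscle covariate, and Slc4a1 under 9 of 42 alternatives in all, with -2.32 without BXH19-1. Rasd2, a small GTPase, had 71.8 and 216 and rested on BXH19-1 in the same way, at -0.51 without it, and with the mean of its probe sets it gave -0.58 and was not called. Pttg1, the securin that holds sister chromatids together, had 1178 and 957 in BXH19 lungs, 1075 to 7396 (median 3291) in the other RI lungs, 4957 and 4641 in B6 and 1062 and 2514 in C3, with a difference of -1.36 (SE 0.21, adjusted p = 0.00128), lost without BXH19-2 (-1.51 to -1.21). C3-1 lay between both BXH19 arrays. BXH6, BXH14, BXH8 and BXH2 were low for Pttg1 as well, at strain means of 1117, 1253, 1534 and 1587.

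On the high side, Glp1r, the receptor for glucagon-like peptide, had 610.0 and 541 in BXH19 lungs, above 132 to 487 (median 223) in the other RI lungs, 303 and 422 in B6 and 378 and 153 in C3. Its difference was 1.17 (SE 0.27, adjusted p = 0.0344), and it lost the call under 8 of 43 alternatives, among them either BXH19 array left out (1.08 to 1.25). Angpt1, a ligand of the endothelial receptor Tie2, had 484 and 524 in BXH19 lungs, above 174 to 468 (median 243) in the other RI lungs, 235 and 368 in B6 and 335 and 187 in C3. That difference was 0.96 (SE 0.19, adjusted p = 0.0122), and it was lost in the same way and with the muscle covariate (0.90 to 1.01). Mmp3, a matrix protease, was higher by 0.88 (SE 0.12, adjusted p = 6.35e-04) at 636 and 560.4, against 178 to 585 (median 320.2) in the other RI lungs. Without BXH19-1 it was not called, at 0.79 to 0.97 over the fits that left out 1 array. The transcripts 6820431F20Rik and 2610005L07Rik, encoded close together on chromosome 8, were higher by 1.22 (SE 0.18, adjusted p = 0.00106) and 0.81 (SE 0.12, adjusted p = 0.00105). Of this pair, only 6820431F20Rik lay above both progenitor means by more than 0.5. The BXH19 mean of 2610005L07Rik was 0.71 above B6 and 0.28 above C3, and so within 0.5 of C3. The call of 2610005L07Rik was lost without BXH19-1 (0.78 to 0.85) and that of 6820431F20Rik without BXH19-2 (1.15 to 1.29), and the mean of the 2610005L07Rik probe sets gave 0.50.

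**Figure D3:**
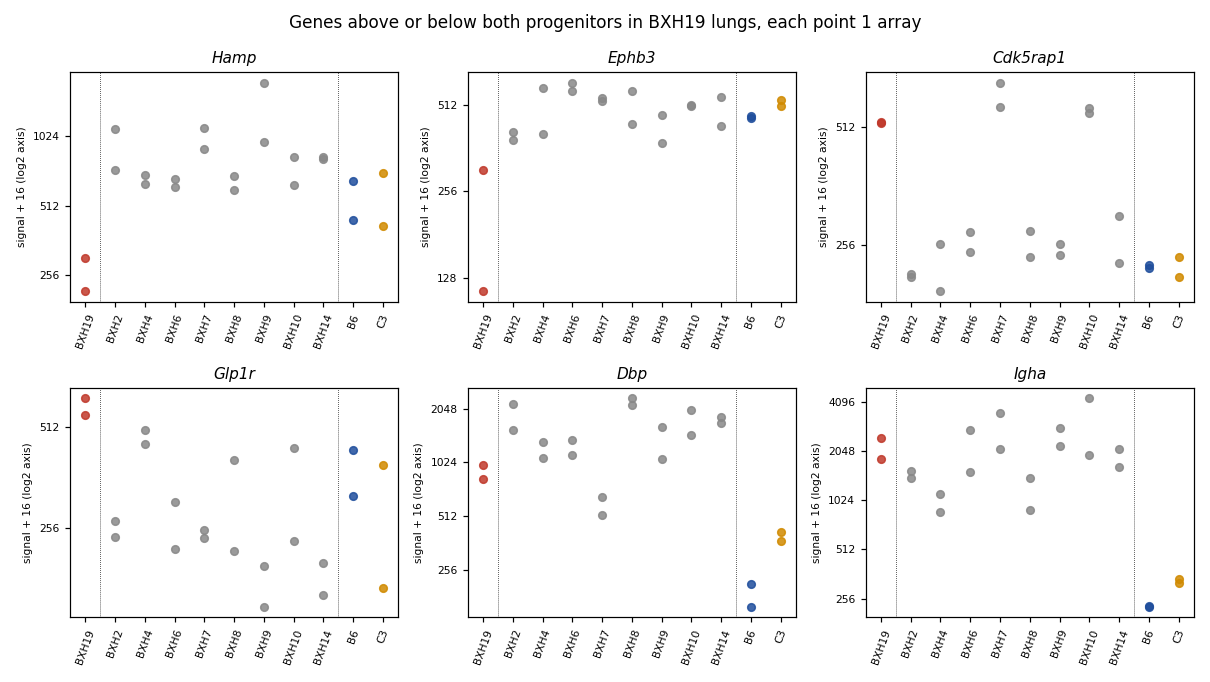
Signals plus 16 on a log2 axis by strain for 6 genes above or below both progenitor means in BXH19 lungs, with BXH19 at the left, the 8 other RI strains in grey and B6 and C3 at the right; each point is 1 array. BXH19 stands alone among the RI strains for Hamp and Ephb3, shares its level with BXH7 and BXH10 for Cdk5rap1, and lies within the range of the other RI strains for Dbp and Igha.

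The 13 genes outside both progenitors that were not called against the other RI strains included 5 of the 15 tested genes of the circadian clock. Dbp, Tef and Hlf, transcription factors driven by the clock, and Per3, a clock repressor, were higher in BXH19 lungs than in both progenitors, and Arntl, the positive arm of the clock, was lower. Dbp had 807 and 968 in BXH19 lungs, 505 to 2327 (median 1485) in the other RI lungs, 196 and 142 in B6 and 403 and 353 in C3. The difference was 2.30 (SE 0.22, adjusted p = 5.02e-06) from B6 and 1.20 (SE 0.22, adjusted p = 0.00658) from C3, and it was -0.63 (SE 0.17, adjusted p = 0.0744) from the other RI strains. Arntl had 99.6 and 132 in BXH19 lungs, 64.7 to 306 (median 128) in the other RI lungs, 568 and 592 in B6 and 300.0 and 366 in C3. Against the other RI strains limma called 0 of the 15 clock genes, with 1 at an unadjusted p below 0.05, and their median difference was -0.16.

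Igha, the constant region of immunoglobulin A, had 2436 and 1813 in BXH19 lungs, 854 to 4312 (median 1764) in the other RI lungs, 211 and 216 in B6 and 303 and 322 in C3. BXH19 was higher than B6 by 3.20 (SE 0.34, adjusted p = 2.48e-05) and than C3 by 2.69 (SE 0.34, adjusted p = 1.74e-04), whereas its difference from the other RI strains was 0.22 (SE 0.26, adjusted p = 0.853). Every RI array lay above every progenitor array. Spon2, an extracellular matrix protein, was lower than in both progenitors, with 170.4 and 143 in BXH19 lungs, 79.4 to 405 (median 145) in the other RI lungs, 869 and 1132 in B6 and 407 and 538 in C3. The remaining genes of this kind were Ephx1 and Dclre1a, which were higher, and Car2, Glipr2, Gm13889 and Igfbp2, which were lower.

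By mean log2 level, the list of alveolar macrophage genes stood higher on both BXH19 arrays than on any other RI array. Of 13 tested members of 24 listed, 2 were higher, Krt79 and Ccl6, and 0 were lower, beside 0.483% and 0.737% of all tested genes. A positive difference was seen in 11 members, and the median was 0.32, beside -0.01 for all tested genes. The mean log2 level of the list was 10.76 and 10.76 in BXH19 lungs, against 10.04, 10.34 and 10.63 as the lowest, median and highest of the other RI lungs. It was 10.23 and 10.27 in B6 lungs and 10.62 and 10.79 in C3 lungs, so BXH19 lay above every other RI array and every B6 array, and beside C3. That mean includes the called members Krt79 and Ccl6, and the level of the list without them was not computed. The summed signal of the list was 29285 and 29919.7 in BXH19 lungs, against 18742 to 30799.5 in the other RI lungs, which overlap. Chil3 and Il18 had differences of 0.61 and 0.69 (adjusted p = 0.0587 and 0.0572) and did not pass, and no member stood at a signal of 0. In whole lung, more cells of a type and more RNA per cell cannot be told apart, and what part the level of this list had in the calls was not tested.

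Ccl6 and Ccl9, chemokines made by macrophages and encoded close together on chromosome 11, were both higher. Ccl6 had signals of 3883 and 3371 in BXH19 lungs, against 1305, 2017 and 2534 as the lowest, median and highest of the other RI lungs. B6 had 1393 and 1663 and C3 2818 and 3311, and the difference was 0.92 (SE 0.16, adjusted p = 0.00429). Ccl9 had 884 and 644 in BXH19 lungs, 299 to 689 (median 374) in the other RI lungs, 386 and 427 in B6 and 417 and 473 in C3, and a difference of 0.94 (SE 0.15, adjusted p = 0.00192). Ccl6 lay above all other RI arrays and Ccl9 did not. Without BXH19-1 neither was called, and without BXH19-2 Ccl6 was not, with ranges of 0.82 to 1.02 for Ccl6 and 0.71 to 1.16 for Ccl9 over the fits that left out 1 array. Of 13 tested chemokines these were the 2 that passed, and the median of the list was 0.05.

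The RefSeq promoters of Ccl6 and Ccl9 (GRCm38.p6, 300 bases each) are shown because the neighbouring genes were higher together; Ccl6 lies at chr11:83593038-83593337, minus strand, and Ccl9 at chr11:83578587-83578886, minus strand. Capitals mark GGAAGT, the core that factors of the ETS family bind, read here on the opposite strand and searched on both. It occurs 1 time in each and in 7809 of 32851 promoters (23.8%), so its presence is common.
Ccl6: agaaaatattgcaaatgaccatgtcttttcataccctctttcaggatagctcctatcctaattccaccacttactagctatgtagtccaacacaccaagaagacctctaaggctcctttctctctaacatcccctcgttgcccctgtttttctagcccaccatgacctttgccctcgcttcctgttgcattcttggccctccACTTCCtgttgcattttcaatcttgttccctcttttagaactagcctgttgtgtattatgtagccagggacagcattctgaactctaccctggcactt
Ccl9: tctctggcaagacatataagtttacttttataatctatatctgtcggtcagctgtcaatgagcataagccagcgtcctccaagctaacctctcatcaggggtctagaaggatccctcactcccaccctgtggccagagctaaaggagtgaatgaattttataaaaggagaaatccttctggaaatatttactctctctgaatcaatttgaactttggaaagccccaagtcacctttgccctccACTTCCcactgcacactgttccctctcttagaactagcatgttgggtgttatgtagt

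Genes of monocytes and interstitial macrophages had positive differences in 16 of 16 tested members, with a median of 0.22, but 0 passed. In limma 4 had an unadjusted p below 0.05, which held for 11.3% of all tested genes. Their mean level was 10.15 and 10.17 in BXH19 lungs, against 9.63, 9.91 and 10.13 as the lowest, median and highest of the other RI lungs. Complement genes had 0 of 11 called and 4 at an unadjusted p below 0.05, a median of 0.18 and a mean level of 9.61 and 9.63 in BXH19 lungs, against 9.23, 9.48 and 9.60 as the lowest, median and highest of the other RI lungs. By mean log2 level both lists lay just above all other RI arrays, and they share the C1q genes. The summed signal of the monocyte list was 39671 and 44320 in BXH19 lungs, against 29575 to 43851 in the other RI lungs, which overlap. That of the complement list was 12569 and 13101, against 10027 to 12544. Of the 37 lists, 3 lay above and 2 below all 16 other RI arrays. Itgb2, an integrin of white blood cells, was higher by 0.73 (SE 0.16, adjusted p = 0.0307) and lost the call without either BXH19 array (0.48 to 0.97) and under 5 of 44 alternatives in all, among them the muscle covariate.

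Smooth muscle genes stood low on both BXH19 arrays. Of 8 tested smooth muscle genes, 0 were higher and 2 lower, beside 0.483% and 0.737% of all tested genes. All 8 had a negative difference, with a median of -0.62, beside -0.01 for all tested genes. Actg2, a smooth muscle actin, had 341 and 325 in BXH19 lungs, below 375 to 902 (median 573) in the other RI lungs, 649 and 742 in B6 and 463 and 572 in C3, and a difference of -0.78 (SE 0.14, adjusted p = 0.00736). Cnn1, calponin, had a difference of -0.76 (SE 0.17, adjusted p = 0.0328), and Acta2, Des and Myh11, at -0.49, -0.78 and -0.74, did not pass. Without either BXH19 array both calls were lost, at -0.82 to -0.75 for Actg2 and -0.89 to -0.64 for Cnn1, which lost it under 5 of 44 alternatives in all. The list mean was 9.13 and 9.11 in BXH19 lungs, against 9.20, 9.64 and 9.94 as the lowest, median and highest of the other RI lungs, and it was 9.69 and 9.45 in B6 lungs and 9.64 and 9.46 in C3 lungs. BXH19 lay below every one of them.

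Skeletal muscle genes had negative differences in 15 of 15 tested members, with a median of -1.69, beside -0.01 for all tested genes. Of the 15, 1 was called lower, Pygm, beside 0.737% of all tested genes. The summed signal of the list was 4470.0 and 2227 in BXH19 lungs, against 2236 to 51957 in the other RI lungs. The range was wide within strains as well, since BXH10, BXH14 and BXH4 each had 1 array at 6.80, 6.98 and 6.55 and the other array above 9 on the mean log2 scale. Of the 13 tested cardiac genes, Mb and the sarcomere protein Ttn were lower, with differences of -1.24 and -0.998 and a median of -0.32 for the list. Fatty acid oxidation genes had 14 of 15 negative differences, a median of -0.18 and 2 lower members, the dehydrogenase Acadl (-0.47, SE 0.10, adjusted p = 0.0289) and the pyruvate dehydrogenase kinase Pdk4 (-1.12, SE 0.26, adjusted p = 0.0402). Their mean level was 9.49 and 9.49 in BXH19 lungs, against 9.54, 9.71 and 10.04 as the lowest, median and highest of the other RI lungs. With the skeletal muscle level as a covariate Pygm and Pdk4 lost the call, whereas Mb, Ttn, Actg2, Cnn1 and Acadl kept it. Leaving out a BXH19 array ended the calls of Pygm (-1.09 to -0.93), Pdk4 (-1.28 to -0.96), Ttn (-1.04 to -0.95) and Acadl (-0.60 to -0.33) without either BXH19 array, and Mb without BXH19-1. In all Pdk4 lost it under 19 of 43 alternatives, Ttn under 3 of 44 and Acadl under 7 of 44, among them the mean of the Acadl probe sets, at -0.19, with the other Acadl probe set at 0.09; what part muscle tissue had in the other results was not tested.

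**Figure D4:**
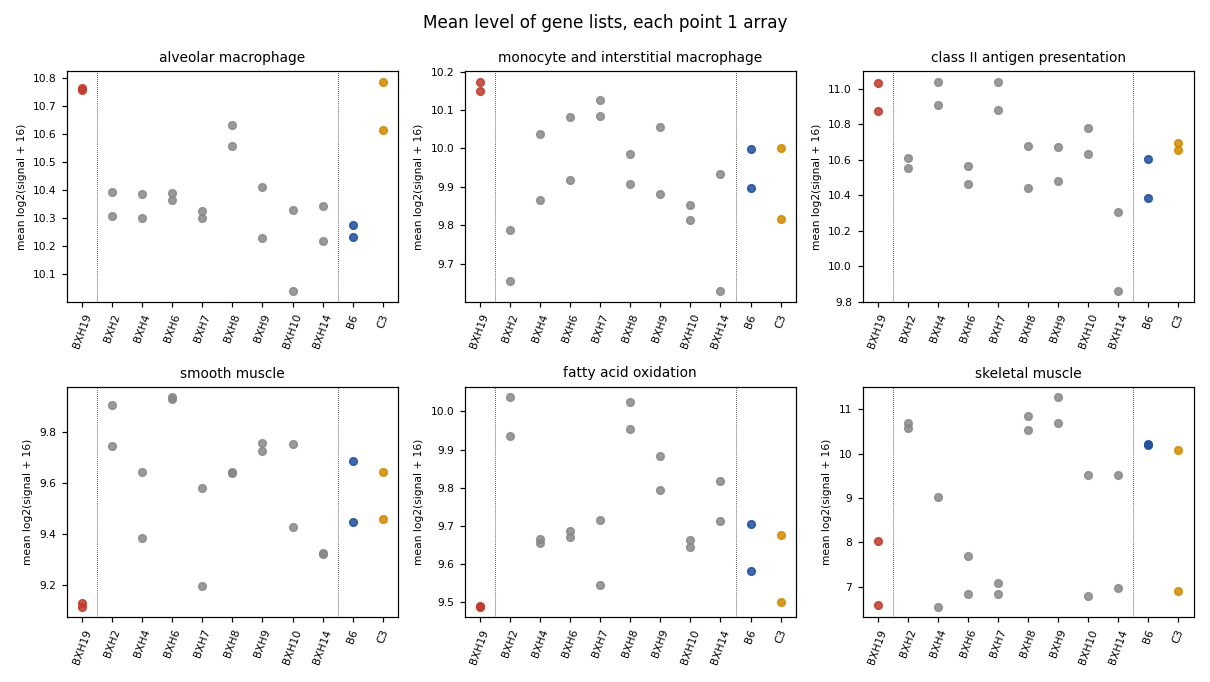
Mean log2(signal + 16) of 6 gene lists, by strain, with BXH19 at the left, the 8 other RI strains in grey and B6 and C3 at the right; each point is 1 array. Both BXH19 arrays lie above the other RI arrays for alveolar macrophage genes and for monocyte and interstitial macrophage genes, below them for smooth muscle and fatty acid oxidation genes, and inside their range for class II and skeletal muscle genes.

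The other lists held few called genes. In limma, 0 members were called of the neutrophil, ciliated cell and T cell lists, with 0 at an unadjusted p below 0.05. The alveolar type 1, B and plasma cell, endothelial and interferon response lists had 0 called members too. Of their 11, 9, 16 and 20 tested members, 3, 3, 5 and 6 had an unadjusted p below 0.05, beside 11.3% of all tested genes. Of 15 tested heat shock genes 0 passed, 7 had an unadjusted p below 0.05, and the median was 0.28. Among 16 fibroblast and matrix genes, Mfap5 and the crosslinking enzyme Lox were higher, by 0.65 (SE 0.15, adjusted p = 0.0352) and 0.60 (SE 0.14, adjusted p = 0.0434). In cholesterol synthesis, Msmo1 was higher (0.78, SE 0.17, adjusted p = 0.0253) and Sc5d lower (-0.75, SE 0.12, adjusted p = 0.00164), and in the antioxidant list Gsta3 was higher and Glo1 lower. Among club cell genes Cckar was lower (-0.54, SE 0.12, adjusted p = 0.0307). Leaving out a BXH19 array ended the calls of Lox (0.43 to 0.77) and Cckar (-0.56 to -0.52), as of Mfap5, without either BXH19 array, and Msmo1 (0.39 to 1.16) and Sc5d (-0.88 to -0.63) without BXH19-1. Lox lost its call under 29 of 44 alternatives in all, among them the replicate block (0.60, adjusted p = 0.0524), and Cckar under 5 of 44, and Sc5d also lost it with the mean of its probe sets (-0.30, adjusted p = 0.34).

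Not every member of a fixed set of strain genes separated BXH19 from the other RI strains. Nnt, a mitochondrial transhydrogenase whose gene is mutated in C57BL/6J, had 976 and 874 in BXH19 lungs, 812 to 1309.8 (median 1009) in the other RI lungs, 531 and 464 in B6 and 1005 and 941 in C3, a difference of -0.17 (SE 0.10, adjusted p = 0.599). Tlr4, the endotoxin receptor that is mutated in C3H/HeJ, differed by 0.41 (SE 0.13, adjusted p = 0.172). Irf8, Sod3, Xdh, Gbp2b and Bcat2 had differences of 0.23, 0.21, -0.42, -0.74 and 0.33, none of which passed; Gbp2b passed without both arrays of BXH2 (-0.86, adjusted p = 0.0387) and without BXH2-2 and was -0.38 without BXH19-1.

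Called genes were grouped by position in the RefSeq gene order, with at most 50 annotated genes between neighbours. Of the 101, 30 fell into 14 groups of at least 2. The groups of 3 were Krt79, Krt18 and Igfbp6 on chromosome 15 and H2-K1, H2-DMa and H2-Ab1 on chromosome 17, and the members of a group did not always move together. Bpifa1 and Cdk5rap1, with 2 genes between them on chromosome 2, moved in opposite directions.

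The calls that passed under each alternative run for them with arrays as units numbered 13; with the 9 strain means as units, 0 genes were called, as given above. All 44 alternatives were run for 9 of them, of which Baiap2l1, H2-D1, H2-K1, Krt79 and Stmn2 were higher and Alad, Hamp, Krt18 and Sspn lower. Gprc5b, Rab6b and Rpgrip1 were lower under the 43 run for each, Rpgrip1 without the mean of its probe sets and the others without the filter at the top 40 percent. Trim34a passed under 42, which included neither that filter nor the mean of its probe sets, and its probe sets disagree in direction. Stmn2, a regulator of microtubules, had 1499 and 1359 in BXH19 lungs, above 707 to 1161 (median 816) in the other RI lungs, 1108 and 1153 in B6 and 867 and 835 in C3, and a difference of 0.72 (SE 0.09, adjusted p = 2.84e-04). Hamp was the 1 gene of these 13 that lay beyond both progenitor means by more than 0.5.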

How the data were processed

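Lung RNA signals of 24 arrays, 2 a strain, were analysed. The authors deposited linear intensities (signals) for 22690 probe sets. The software behind them, any background subtraction and the genome build are not given in the sources used. Trimmed means of the deposited intensities (2 percent from each end) lay between 500.106 and 500.133, so a common scaling was present and none was added.

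Genes were named through the platform annotation (20380 probe sets with 1 symbol, 691 with several, 1555 with none, 64 controls). Each gene took its probe set of highest mean, tested if in the top 60 percent (signal of at least 169). Values were log2(signal + 16). One limma 3.58.1 model in R 4.3.3 (lmFit, eBayes with trend) had 12 strains as groups and 12 residual degrees of freedom. BXH19 was set against the average of the 8 remaining RI strain means, against B6 and against C3. The code was tested on simulated data.

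Members, gene lists and tests were chosen with earlier results of these data known. Named genes were the 15 largest and 15 lowest called differences, up to 8 of each sign called outside both progenitors, called members and up to 4 members of smallest p of each described list, runs of 3 or more neighbours, and a fixed set of strain genes. Other genes, motifs and promoters were chosen after their values were seen. Alternatives were normalization, offsets of 1 and 64, filters, probe set rules, trend, replicate block, muscle covariate, fewer arrays or strains, and strain means as units.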

Additional observations from a re-analysis of the deposited data

How the results depend on the processing

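Counts of called genes changed as follows. The 40 higher genes became 73 with every probe set tested, 26 with the skeletal muscle covariate, 63 without both arrays of BXH4 and 0 with the 9 strain means as units, and leaving out 1 array gave 8 to 50. The 61 lower genes became 38 with a filter at the top 40 percent and 0 with strain means, and leaving out 1 array gave 21 to 68. Outside both progenitors, the 9 higher genes became 14 with every probe set, and leaving out 1 array gave 3 to 10 for the higher and 1 to 15 for the 10 lower genes, with 5 higher genes without BXH19-1 and 4 without C3-2, and 2 lower genes without B6-1, 3 without B6-2 and 2 without C3-2. BXH19 minus B6 called 112 genes, 46 with the muscle covariate, 71 with 6 arrays alone and 45 to 126 with 1 array left out. BXH19 minus C3 called 119, 78 with 6 arrays alone and 40 to 139 with 1 array left out. Called genes beyond both progenitor means numbered 32, 20 in the top 40 percent and 13 to 40 with 1 array left out. Fewer genes or samples entered some of these fits; otherwise the cause was not tested.

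Of 101 called genes, 88 lost the call or changed sign under at least 1 of up to 44 alternatives that kept arrays as units. Cdc42ep5 reversed to 0.0698 (adjusted p = 0.967) with the mean of its probe sets, which disagree, and Pdxdc1 to 1.70 with an offset of 64. With strain means, 39 of the 101 had an unadjusted p below 0.05. Deviations of replicate 1 from the strain mean were correlated between strains. Of 66 correlations, 22 exceeded 0.1, over a range of -0.30 to 0.34 and with a median of -0.004. Whether the replicate number pairs samples of some strains cannot be told from these values. With the replicate block, 100 genes were called, 39 higher and 61 lower, and 98 were shared with the 101. Signal over background cannot be judged from these values.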

Other observations

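Probe sets without a single gene symbol were left out of the comparisons. Of 1085 such probe sets that passed the filter, 18 were higher in BXH19 lungs than in the other RI strains and 11 were lower (2.67%, limma, adjusted p below 0.05).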
